A study of Rattus norvegicus with 172 samples.

Results

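Granule cells of the rat dentate gyrus were profiled 3 days after status epilepticus set off by pilocarpine in the Coulter laboratory, in 6 rats, and set against 6 control rats of the same laboratory. These 12 rats were chosen by their labels and are part of 164 rats on 172 arrays in the whole series, which covers several models of epilepsy at several times and in several laboratories. All were male Sprague-Dawley rats of 180 to 200 g, and no age was given. The day 3 rats received methylscopolamine at 1 mg/kg, which keeps pilocarpine from acting outside the brain, and 30 min later pilocarpine at 300 to 350 mg/kg under the skin. Their seizures were stopped with pentobarbital at 25 mg/kg after 90 min. Control rats received the same methylscopolamine and then saline, so that agent is shared by both groups. The labels do not say whether controls had pentobarbital or when after saline they were harvested. Coulter rats at day 1 and day 10, and Dingledine laboratory rats at day 3 with their own controls, 6 rats in each group, serve as comparisons, and the written protocol is the same for both laboratories. Granule cell bodies were cut by laser, in spots of 25 to 30 µm, from 10 to 16 sections per rat that were 10 µm thick and stained with cresyl violet. RNA had an integrity number above 7, and at least 10 ng per rat was amplified and hybridised to a 1-colour Affymetrix array.

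Granule cells are the main excitatory neurons of the dentate gyrus. They receive the entorhinal input to the hippocampus and send mossy fibres to CA3 and the hilus, and the zone beneath them makes new neurons throughout life. Pilocarpine, a muscarinic agonist, starts a prolonged seizure that kills hilar and pyramidal neurons, activates astrocytes and microglia, and is followed after a delay by spontaneous seizures. Microglia clear debris with lysosomal enzymes and complement, astrocytes respond with intermediate filaments such as GFAP and vimentin, and progenitor division increases within days. A laser spot over the granule layer holds the cell bodies of granule cells together with the fine processes, glia and vessels that lie among them.

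The labelled cell type was checked against its markers. Of 15 listed granule cell markers, 12 were on the array and 11 passed the signal filter and were tested. All 11 tested granule cell markers lay above the array median in each of the 6 day 3 rats and in each of the 6 controls. The filter kept only probe sets above the array median in at least 6 rats of the whole series. A count of tested markers above that median is therefore partly fixed in advance, here and for the other cell types. Prox1, the transcription factor that defines granule cells, had signals of 2050 to 3029 (median 2695) in day 3 rats, against 2140 to 4718 (median 3175) in controls. The groups overlapped for Prox1, and its difference of -0.29 ± 0.24 on the log2 scale did not pass (adjusted p = 0.644). Markers of other cell types were present as well. Of 13 astrocyte markers, 11 lay above the array median in all 6 day 3 rats and 11 in all 6 controls, so astrocyte RNA was in both groups. Of 13 oligodendrocyte markers, 6 did so in day 3 rats and 5 in controls. Their summed signal ran widely between rats, 1981 to 8314 (median 3125) in day 3 rats, against 1034 to 8851 (median 2324) in controls. The file holds no detection calls, so a low signal cannot be called absent. In bulk samples of this kind, a change in how many cells of a type were cut and a change in RNA per cell cannot be told apart.

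Measures of array quality overlapped between the groups. The median signal of an array was 33.5 ± 1.42 in day 3 rats and 33.4 ± 2.57 in controls (SD, n = 6 each; exact permutation test, two-sided, p = 0.963). The log2 ratio of 3′ to 5′ signal averaged 1.83 ± 0.396 in day 3 rats and 1.91 ± 0.458 in controls for Gapdh (exact p = 0.738), and 4.50 ± 0.281 in day 3 rats and 4.66 ± 0.504 in controls for actin (exact p = 0.582). Over the 3 measures the adjusted p was 0.963 throughout. Some rats stood apart in the Coulter groups. Day 3 rat 2 had far higher signals of immediate early genes than the other 5 day 3 rats. On the first principal component of the Coulter arrays, which held 31.8% of the variance, day 1 rats 1 and 2 scored -9.98 and -14.2 while day 1 rats 3 to 6 scored 23.7 to 42.2. Day 10 rats 1 to 3 scored 34.0 to 47.3 there while day 10 rats 4 to 6 scored -19.2 to -12.1. Day 3 rats scored -10.4 to 0.549 and controls -26.3 to -21.2, so neither of these groups was split in that way. Results that rest on these rats are given with and without them.

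Differences were tested with limma on log2(signal + 16), in 1 fit of the 8 pilocarpine groups, and a gene is said to have risen or fallen where its Benjamini-Hochberg adjusted p over 10731 tested genes was under 0.05. Adding 16 understates the change of dim genes. Differences are on the log2 scale and are followed by the standard error of the fit (6 rats in each group), and a number alone in parentheses after a difference is its adjusted p. Between day 3 rats and controls 389 genes passed, or 3.63% of those tested. Of these, 234 rose (2.18%) and 155 fell (1.44%), and 109 rises and 50 falls were at least 2-fold. The shares of 2.18% and 1.44% are the background for the count of each gene list below. The lists were chosen with earlier results of these data known, so a count above its share may be partly fixed by that choice. In 335 genes (3.12%) all 6 day 3 rats lay above every control, and in 202 genes (1.88%) all 6 lay below. Among the genes that passed, 166 of the 234 rises and 99 of the 155 falls had groups that did not overlap. Of the 234 rises 53 (22.6%) were below the array median in all 6 controls, against 2 of the 155 falls (1.29%) and 8.57% of all tested genes. This contrast is partly fixed in advance. A gene that low in controls has little room to fall, and the signal filter admitted it only through other rats in which it was higher. The same limit holds for the microglial, phagocyte and mitosis lists below, where many members were low in controls. When the difference was tested against a 1.5-fold change instead of 0, 20 genes passed. With the 12 rats in a fit of their own 886 genes passed, and with the Coulter rats that stood apart at day 1 and day 10 left out of the fit 530 passed. Each of the 12 rats was also left out in turn, which gave 260 to 417 genes. Genes named below that lost their call in any of these 12 leave-one-out fits are marked. The calls of Tgfb3 and Smad3 were followed only without day 3 rat 2.

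The largest rise on the log2 scale among genes that passed was that of Lox, lysyl oxidase, which cross-links collagen and elastin. Its signals were 175 to 682 (median 340.4) in day 3 rats, against 10.5 to 35.5 (median 20.8) in controls. Every day 3 rat was several-fold above the highest control, and the log2 difference was 3.33 ± 0.64 (adjusted p = 0.000825). Prss23, a secreted serine protease, had signals of 277 to 363 (median 311) in day 3 rats, against 24.6 to 68.7 (median 38.4) in controls. The 6 day 3 rats lay close together and none overlapped a control, and Prss23 rose by 2.55 ± 0.32 (adjusted p = 2.2e-06) on the log2 scale. Palmd, palmdelphin, a relative of the membrane-bound paralemmin, had signals of 165 to 412 (median 245) in day 3 rats, against 27.4 to 62.0 (median 44.2) in controls. Again no rat overlapped, and the log2 difference was 2.18 ± 0.39 (adjusted p = 0.000282). Car10, a carbonic anhydrase-related protein without catalytic activity, was higher in all 6 day 3 rats and rose by 2.10 ± 0.38 (adjusted p = 0.000405). Its signals were 55.7 to 484 (median 106) in day 3 rats, against 1.43 to 33.9 (median 24.5) in controls, and day 3 rat 2 was the highest by far.

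The largest fall among them was that of Fst, follistatin, a secreted antagonist of activins. Fst signals were 3.26 to 47.1 (median 15.2) in day 3 rats, against 132 to 189 (median 158) in controls. All day 3 rats lay below the lowest control, and Fst fell by 2.43 ± 0.36 (adjusted p = 1.85e-05) on the log2 scale. Tafa1, a secreted chemokine-like protein of neurons, had signals of 51.8 to 198 (median 149.9) in day 3 rats, against 549 to 716 (median 610.0) in controls, with no overlap, and fell by 2.12 ± 0.36 (adjusted p = 0.000125). Ddit4l, a stress-induced inhibitor of mTOR signalling, had signals of 37.4 to 86.9 (median 71.8) in day 3 rats, against 258 to 381 (median 306) in controls. Its controls were tightly grouped well above all day 3 rats, and it fell by 2.06 ± 0.28 (adjusted p = 3.65e-06). Guanine nucleotide exchange factors were also among the 12 largest falls. Vav2 had signals of 11.5 to 58.2 (median 23.5) in day 3 rats, against 65.9 to 231 (median 116) in controls, without overlap, and fell by 1.70 ± 0.28 (adjusted p = 0.000117). Spata13 had signals of 118 to 492 (median 221) in day 3 rats, against 486 to 1422 (median 817) in controls, with 1 or more day 3 rats within the control range, and fell by 1.87 ± 0.38 (adjusted p = 0.00192). Gpc3, a heparan sulphate proteoglycan of the cell surface, fell by 1.78 ± 0.35 (adjusted p = 0.00111) with no overlap. Adra1d, the alpha-1D adrenergic receptor, fell by 1.60 ± 0.43 (adjusted p = 0.022). Its groups overlapped slightly, and it lost the call in 5 of the 12 leave-one-out fits (highest adjusted p 0.0681).

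**Figure D1:**
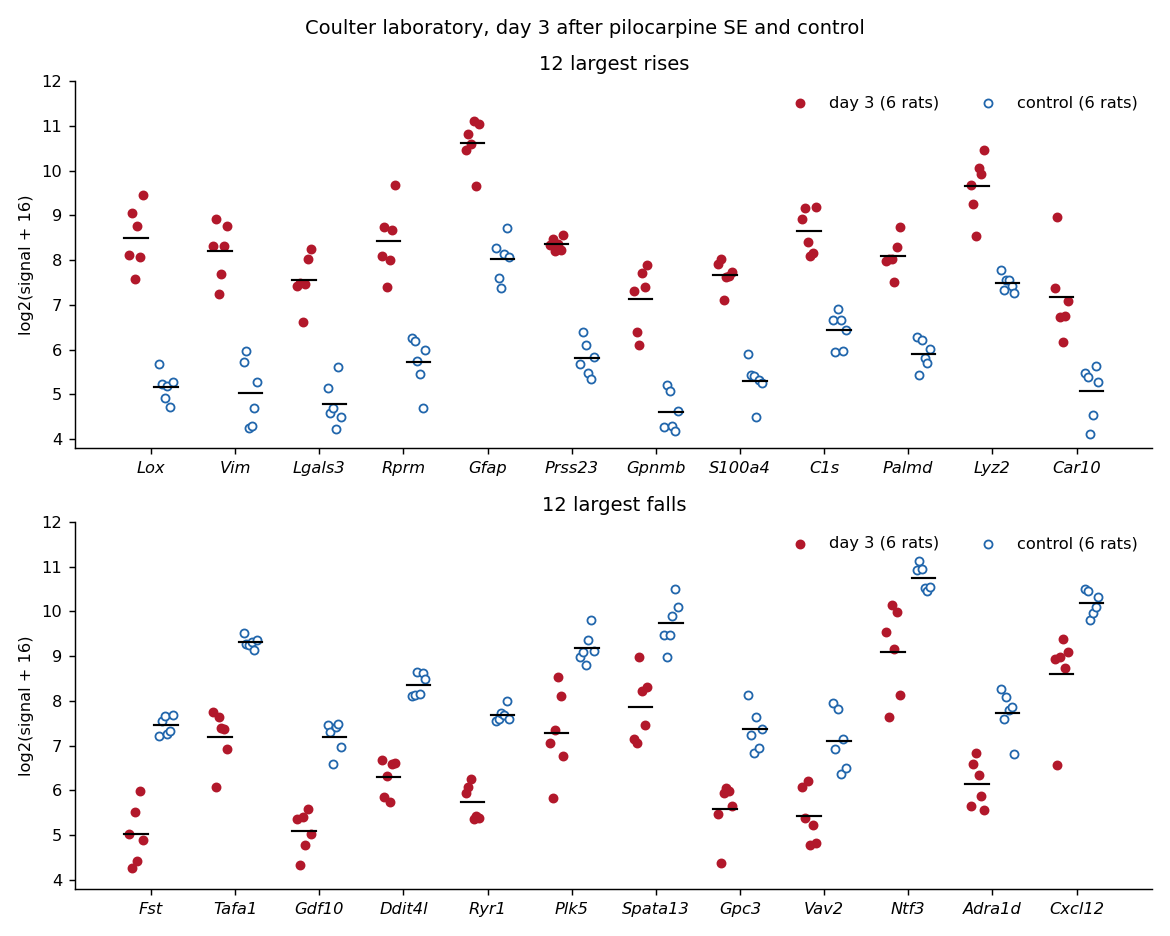
Log2(signal + 16) in each of the 6 day 3 rats and 6 controls for the 12 genes with the largest rises and the 12 with the largest falls among those that passed. Points are rats and bars are group means. Day 3 rats lie above every control in each of the 12 rises, and Adra1d and Spata13 are the falls in which the groups overlap.

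Genes of microglia and macrophages, the phagocytes of the brain, rose in day 3 rats. Of 15 tested markers of these cells 8 rose and none fell, where 2.18% of all genes rose. Their median log2 difference was 0.92, against 0.01 for all tested genes. Lyz2, lysozyme, had signals of 354 to 1387 (median 879.6) in day 3 rats, against 138 to 203 (median 163) in controls. Each day 3 rat was above all controls, and Lyz2 rose by 2.16 ± 0.51 (adjusted p = 0.00813) on the log2 scale. Cd68, a lysosomal membrane protein of phagocytes, had signals of 42.7 to 108 (median 66.3) in day 3 rats, against 6.00 to 13.7 (median 11.2) in controls and rose by 1.68 ± 0.25 (adjusted p = 2.12e-05). Laptm5, a lysosomal protein of blood-derived cells, had signals of 56.6 to 133 (median 65.3) in day 3 rats, against 8.82 to 21.9 (median 11.4) in controls and rose by 1.70 ± 0.35 (adjusted p = 0.00174). No rat of one group reached the other for Cd68 or Laptm5. Fcer1g, the signalling chain of immunoglobulin receptors, rose by 1.67 ± 0.28 (adjusted p = 0.000109), also without overlap. The summed signal of the 15 markers was 1297 to 2719 (median 1885) in day 3 rats, against 523 to 902 (median 643) in controls. By the medians given, Lyz2 alone made a large part of that difference. In day 3 rats 9 of these markers lay above the array median in all 6 arrays and 2 in none, while in controls 3 did so in all 6 and 8 in none.

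The genes that phagocytes turn on when they are active rose as well. Of 15 tested members of that list 6 rose and none fell, with a median log2 difference of 0.97. Lgals3, galectin-3, a sugar-binding protein of active phagocytes, had signals of 83.0 to 288 (median 163) in day 3 rats, against 2.67 to 33.0 (median 8.85) in controls. The groups were far apart and Lgals3 rose by 2.76 ± 0.44 (adjusted p = 8.47e-05). Gpnmb, a membrane glycoprotein of lipid-laden phagocytes, had signals of 52.5 to 220.5 (median 147) in day 3 rats, against 2.23 to 21.3 (median 6.21) in controls and rose by 2.52 ± 0.51 (adjusted p = 0.00162). Controls were near the bottom of the scale for Gpnmb, and every day 3 rat was above them. Plin2, which coats lipid droplets, had signals of 80.3 to 204 (median 116) in day 3 rats, against 18.7 to 41.8 (median 31.5) in controls and rose by 1.52 ± 0.30 (adjusted p = 0.00111). Fcgr2b, an inhibitory receptor for immunoglobulin G, rose by 1.47 ± 0.33 (adjusted p = 0.00456) with control signals of at most 10.9. Of 23 lysosomal genes 2 rose and none fell, where 2.18% of all genes rose. These were the cathepsins Ctsh, which rose by 1.05 ± 0.21 (adjusted p = 0.00147), and Ctsz, which rose by 1.03 ± 0.25 (adjusted p = 0.00913), and the list's median was 0.21.

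Complement genes rose where they passed. The classical pathway starts when C1q binds a target and the proteases C1r and C1s act next. Of 12 tested complement genes 4 rose and none fell, with a median log2 difference of 0.89. C1s, the protease that cleaves C4 and C2, had signals of 258 to 562 (median 395) in day 3 rats, against 45.4 to 104 (median 78.0) in controls. Day 3 rats did not overlap controls, and C1s rose by 2.23 ± 0.30 (adjusted p = 2.78e-06). C1r, which activates C1s, had signals of 158 to 249 (median 221) in day 3 rats, against 41.0 to 129.6 (median 78.9) in controls and rose by 1.30 ± 0.25 (adjusted p = 0.00111), without overlap. The chains of C1q itself are made by microglia. C1qc had signals of 35.1 to 99.5 (median 62.2) in day 3 rats, against 6.29 to 22.3 (median 12.8) in controls and rose by 1.45 ± 0.26 (adjusted p = 0.00039), and C1qa rose by 1.19 ± 0.28 (adjusted p = 0.00719) with day 3 rats overlapping the highest control. The remaining chain, C1qb, named after its values were seen, differed by 0.45 and did not pass (adjusted p = 0.521). C1qa and C1qc are also counted among the 15 microglial markers above, and that summed signal moved with them.

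Antigen presentation genes rose where they passed. Of 13 tested genes of antigen presentation 3 rose and none fell, with a median of 0.37. Cd74, the invariant chain that guides class II molecules, had signals of 73.9 to 300.1 (median 130.2) in day 3 rats, against 3.57 to 68.2 (median 22.3) in controls. RT1-Da, a class II alpha chain of the rat, had signals of 83.4 to 259.5 (median 112) in day 3 rats, against 6.77 to 60.1 (median 24) in controls. In both genes the lowest day 3 rat was above the highest control, and the log2 rises were 1.96 ± 0.37 (adjusted p = 0.000825) for Cd74 and 1.82 ± 0.34 (adjusted p = 0.000519) for RT1-Da. The other class II genes tested, named after their values were seen, did not pass. Their log2 differences were 0.75 for RT1-Db1, 0.52 for RT1-DMb, 0.37 for RT1-DMa, -0.20 for RT1-Ba and -0.02 for Ciita, the activator of class II transcription. RT1 genes resemble each other closely, so the probe sets may share signal. B2m, beta-2 microglobulin of class I molecules, had signals of 491 to 594 (median 568) in day 3 rats, against 131 to 267 (median 248) in controls and rose by 1.26 ± 0.26 (adjusted p = 0.00232) without overlap. Interferon-response genes did not pass. None of 13 did, the median was 0.42, and the one with the smallest p, Irf8, a transcription factor of myeloid cells, had a log2 difference of 0.54 ± 0.19 (adjusted p = 0.107). Of 15 chemokine and cytokine genes 1 rose and 1 fell, where 2.18% of all genes rose and 1.44% fell. They were a receptor and its ligand. Cxcr4, the receptor, had signals of 29.1 to 60.5 (median 47.0) in day 3 rats, against 8.27 to 22.8 (median 12.2) in controls and rose by 1.01 ± 0.27 (adjusted p = 0.0198), a call it lost without day 3 rats 4, 5 or 6. Its ligand Cxcl12 had signals of 78.1 to 646 (median 479) in day 3 rats, against 882 to 1436 (median 1165) in controls and fell by 1.58 ± 0.46 (adjusted p = 0.0367). Cxcl12 lost the call in 7 of the 12 leave-one-out fits (highest adjusted p 0.169), and its other probe set gave a difference of 0.19.

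Astrocytes answer injury by filling with intermediate filaments. Of 15 tested genes of reactive astrocytes 2 rose and none fell, with a median of 0.34, and these were the intermediate filaments Vim and Gfap. Other intermediate filament genes of the list, named after their values were seen, did not pass. They were Nes at 0.25 (adjusted p = 0.688) and Synm at -0.37 (adjusted p = 0.389). Gfap had signals of 793 to 2199 (median 1657) in day 3 rats, against 149.6 to 404 (median 259) in controls. Vim had signals of 135 to 469 (median 302) in day 3 rats, against 3.01 to 46.7 (median 16.5) in controls. Neither gene showed overlap between groups, and the log2 rises were 2.59 ± 0.34 (adjusted p = 2.43e-06) for Gfap and 3.17 ± 0.43 (adjusted p = 3.65e-06) for Vim. The 15 genes had a summed signal of 1868 to 3337 (median 2511) in day 3 rats, against 617 to 909 (median 829) in controls. By the medians given, Gfap and Vim made most of that difference. Of the 13 markers of astrocytes at rest none passed in either direction, and their median was 0.26. The smallest p among them was that of Slc4a4, a sodium bicarbonate cotransporter, at -0.74 ± 0.29 (adjusted p = 0.171). Their summed signal was 6412 to 8332 (median 7357) in day 3 rats, against 5580 to 7703 (median 6199) in controls, so the groups overlapped.

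Genes of the extracellular matrix and of the cell cortex rose in part. Of 31 tested genes of the matrix and its proteases 4 rose and none fell, where 2.18% of all genes rose, with a median of 0.32. Beside Lox and Prss23 these were Mmp9, a gelatinase, which rose by 1.42 ± 0.40 (adjusted p = 0.0297), and the proteoglycan Vcan, versican, which rose by 0.83 ± 0.25 (adjusted p = 0.0483). Both had day 3 rats above every control, but Mmp9 lost the call in 8 of the 12 leave-one-out fits (highest adjusted p 0.0974) and Vcan in 11 of the 12 leave-one-out fits (highest adjusted p 0.134). Of 23 tested annexin, S100 and cortex-linking genes 4 rose and none fell, with a median of 0.38. S100a4, a calcium-binding protein of motile cells, had signals of 122 to 243 (median 190.1) in day 3 rats, against 6.66 to 43.5 (median 25.4) in controls. Its groups were well apart, and S100a4 rose by 2.37 ± 0.39 (adjusted p = 9.65e-05). S100a10, the partner of annexin A2, had signals of 94.2 to 380.0 (median 128) in day 3 rats, against 27.9 to 57.3 (median 39.5) in controls and rose by 1.66 ± 0.42 (adjusted p = 0.0133). Lgals1, galectin-1, rose by 1.07 ± 0.28 (adjusted p = 0.0169). Both S100a10 and Lgals1 lost the call without day 3 rat 6, at adjusted p 0.0588 and 0.052. Anxa3, a membrane-binding annexin, rose by 0.89 ± 0.26 (adjusted p = 0.0357) and lost the call in 8 of the 12 leave-one-out fits (highest adjusted p 0.109).

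**Figure D2:**
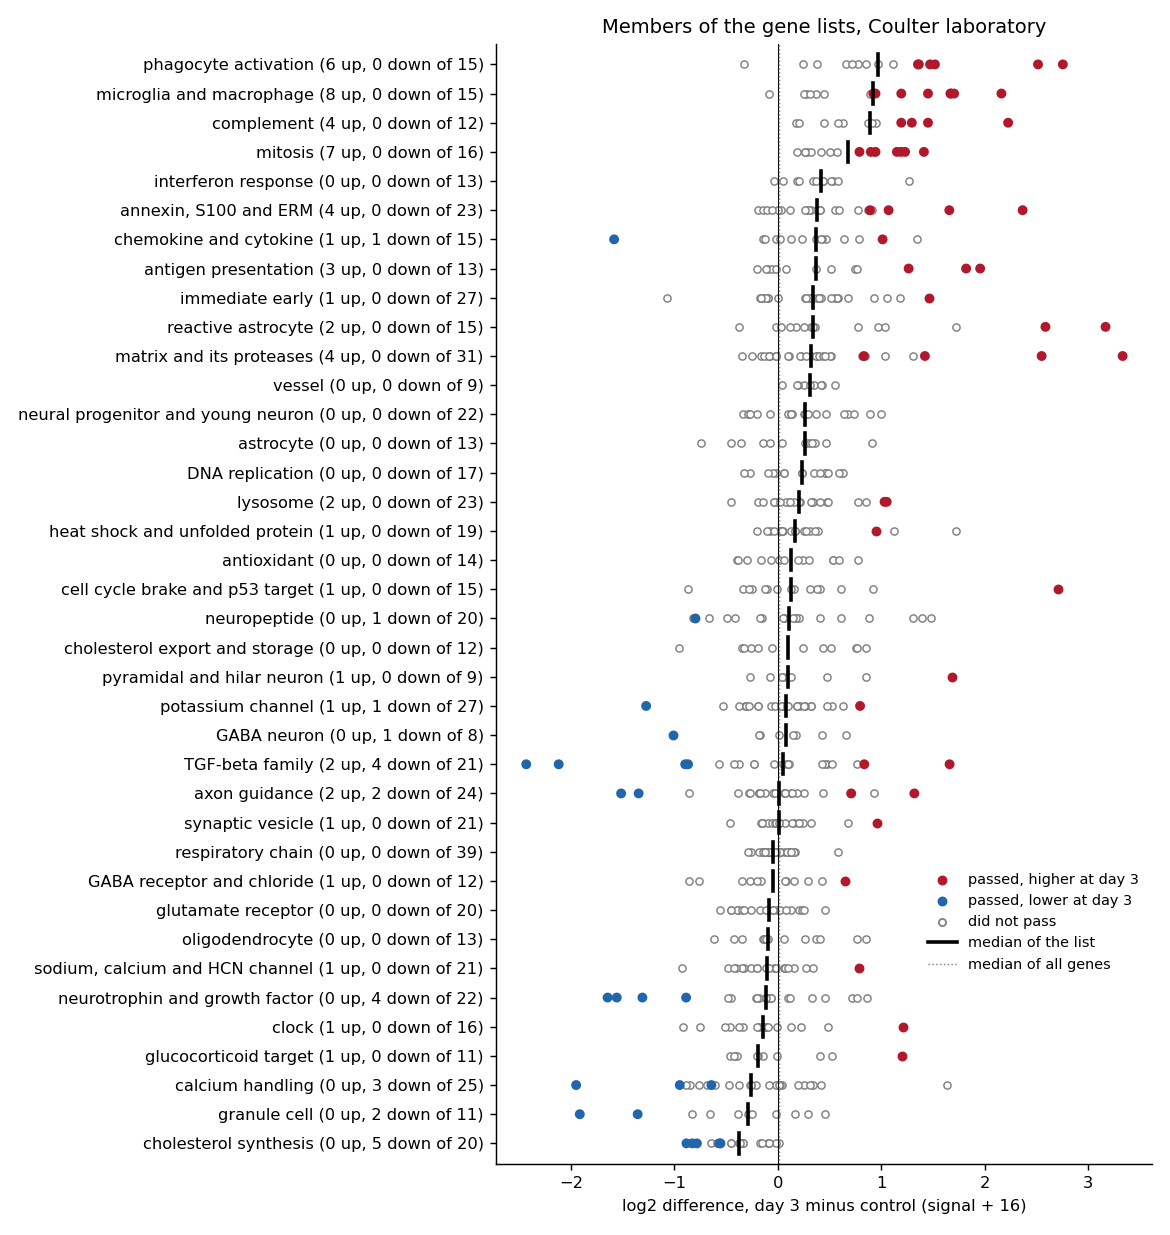
Log2 difference of day 3 rats minus controls for the tested members of 38 gene lists, with each list's median as a bar and its counts of genes that rose and fell. The microglial, phagocyte, complement and mitosis lists lie furthest to the right, and the cholesterol synthesis list lies to the left of 0.

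Genes of cell division rose where they passed, and no gene of DNA replication passed. Of 26 listed mitosis genes 25 were on the array and 16 passed the signal filter. Members low in controls could pass it only through rats in which they were higher, so a shared positive sign is partly fixed by it. Of the 16 tested mitosis genes 7 rose and none fell, where 2.18% of all genes rose. All 16 had a positive difference, and the median was 0.68. These genes act from G2 to the end of mitosis and are low in cells that do not divide. Prc1, which bundles the midzone microtubules, had signals of 33.9 to 75.3 (median 59.5) in day 3 rats, against 2.17 to 27.5 (median 9.78) in controls. Cdk1, the kinase that starts mitosis, had signals of 33.9 to 75.6 (median 49.8) in day 3 rats, against 5.27 to 19.2 (median 11.8) in controls. Nusap1, a spindle protein, had signals of 41.1 to 64.4 (median 54.8) in day 3 rats, against 4.96 to 23.2 (median 14.5) in controls. Mki67, the gene of the Ki-67 antigen that coats mitotic chromosomes, had signals of 28.4 to 60.7 (median 42.6) in day 3 rats, against 1.81 to 20.5 (median 10.9) in controls. In all 4 genes every day 3 rat lay above every control. The log2 rises were 1.41 ± 0.32 (adjusted p = 0.00592) for Prc1, 1.23 ± 0.24 (adjusted p = 0.0012) for Cdk1, 1.19 ± 0.22 (adjusted p = 0.000364) for Nusap1 and 1.15 ± 0.24 (adjusted p = 0.00276) for Mki67. The summed signal of the 16 mitosis genes was 616 to 869 (median 730.5) in day 3 rats, against 309.9 to 442 (median 353) in controls, which did not overlap either. These are low signals on this array, whose median was near 33.4, and which cells carried them was not tested. The 17 tested DNA replication genes had no member that passed and a median of 0.24. The smallest p among them was that of Tyms, thymidylate synthase, with signals of 33.4 to 83.3 (median 51.0) in day 3 rats, against 22.6 to 32.6 (median 27.8) in controls. Tyms did not overlap between groups, and its difference of 0.63 ± 0.20 had an adjusted p of 0.0629. The summed signal of the 17 DNA replication genes was 2308 to 2571 (median 2403) in day 3 rats, against 1921 to 2216 (median 1971) in controls, also without overlap. With the 12 rats fitted alone 2 of the 17 rose, Tyms among them. The difference between the mitosis and DNA replication lists was not tested.

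The promoters of these 4 mitosis genes are shown because 7 of the 16 genes rose together and G2 and mitosis genes share promoter elements. The cell cycle homology region (CHR) and the CCAAT box are elements of such promoters, bound by the DREAM or MuvB complexes and by NF-Y. Each sequence runs 5′ to 3′ from 250 bases before to 50 bases after the gene's start, from RefSeq on GRCr8. Capitals mark the CHR (TTTGAA or TTCGAA) and the CCAAT box, on either strand. ATTGG and TTCAAA are the same elements read from the other strand, and TTCGAA reads the same on both.
Prc1, chr1:143659231-143659530, plus strand: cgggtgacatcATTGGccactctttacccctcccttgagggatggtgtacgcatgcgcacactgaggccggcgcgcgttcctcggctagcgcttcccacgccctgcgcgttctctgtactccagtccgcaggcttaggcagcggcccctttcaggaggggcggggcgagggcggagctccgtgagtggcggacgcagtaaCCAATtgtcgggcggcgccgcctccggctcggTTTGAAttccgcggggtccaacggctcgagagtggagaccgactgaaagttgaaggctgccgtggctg
Cdk1, chr20:19265043-19265342, plus strand: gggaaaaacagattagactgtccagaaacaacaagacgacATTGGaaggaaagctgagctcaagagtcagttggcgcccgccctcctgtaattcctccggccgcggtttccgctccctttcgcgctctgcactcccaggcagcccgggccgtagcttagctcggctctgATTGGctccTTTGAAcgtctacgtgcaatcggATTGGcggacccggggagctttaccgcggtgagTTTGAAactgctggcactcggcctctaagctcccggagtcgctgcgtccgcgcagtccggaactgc
Nusap1, chr3:127057045-127057344, plus strand: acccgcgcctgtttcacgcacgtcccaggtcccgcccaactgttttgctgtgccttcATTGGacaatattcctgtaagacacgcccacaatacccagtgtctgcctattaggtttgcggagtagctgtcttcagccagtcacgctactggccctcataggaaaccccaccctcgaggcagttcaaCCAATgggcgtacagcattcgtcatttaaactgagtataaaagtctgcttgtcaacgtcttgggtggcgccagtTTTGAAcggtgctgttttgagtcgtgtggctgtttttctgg
Mki67, chr1:199952544-199952843, minus strand: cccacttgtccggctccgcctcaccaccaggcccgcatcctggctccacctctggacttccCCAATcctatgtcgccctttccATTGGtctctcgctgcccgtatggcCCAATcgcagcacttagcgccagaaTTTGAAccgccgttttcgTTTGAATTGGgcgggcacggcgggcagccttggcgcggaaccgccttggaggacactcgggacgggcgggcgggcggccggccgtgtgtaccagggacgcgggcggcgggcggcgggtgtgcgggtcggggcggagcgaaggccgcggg
In the Mki67 promoter a CHR and a CCAAT box overlap. Promoter sequences were held for 14 of the 16 tested mitosis genes. The CHR was found in 11 of these 14 (78.6%) and in 19.7% of 33469 promoters of the same length, and the CCAAT box in 12 (85.7%) and 37.5%. The E2F motif (TTTGGCG or TTTCCCG, either strand) was in 0 of the 14 mitosis promoters, in 9 of 16 DNA replication promoters (56.2%) and in 4.96% of all. The CHR was in 4 of the 16 DNA replication promoters (25.0%). A match is a description of these letters and not of a bound site.

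The brake on the cell cycle that rose was Rprm, reprimo, a p53 target that holds cells in G2. Rprm signals were 152 to 802 (median 325) in day 3 rats, against 9.96 to 61.1 (median 42.5) in controls. All day 3 rats were above all controls, and Rprm rose by 2.70 ± 0.47 (adjusted p = 0.000166). It was the only one of 15 tested brakes and p53 targets to pass, and the list's median was 0.13. None of 22 genes of neural progenitors and young neurons passed, with a median of 0.26. The smallest p was that of Dcx, doublecortin of migrating young neurons, with signals of 479 to 719.7 (median 567) in day 3 rats, against 286 to 464 (median 367) in controls. Dcx was higher in each day 3 rat than in any control, at a difference of 0.64 ± 0.22 (adjusted p = 0.0924). With the 12 rats fitted alone 3 of the 22 genes rose, Dcx among them. With the Coulter rats that stood apart at day 1 and day 10 left out of the fit, only Dcx rose.

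Among the markers of granule cells themselves, 2 of 11 fell and none rose, where 1.44% of all genes fell, and the median was -0.29. Calb1, calbindin, the calcium buffer that mature granule cells hold in large amounts, had signals of 349 to 1035 (median 758) in day 3 rats, against 1639 to 2100 (median 1868) in controls. No day 3 rat reached the lowest control, and Calb1 fell by 1.35 ± 0.23 (adjusted p = 0.000127). Plk5, a polo-like kinase family member without kinase activity, had signals of 40.9 to 355 (median 132) in day 3 rats, against 431 to 874 (median 534) in controls. Its groups did not overlap and it fell by 1.91 ± 0.55 (adjusted p = 0.0341), but it lost the call in 8 of the 12 leave-one-out fits (highest adjusted p 0.122). Without day 3 rat 2 the difference of Plk5 was -1.62 (adjusted p = 0.122), and Calb1 was then the only marker that passed. With the 12 rats fitted alone 4 markers fell and none rose. The summed signal of the 11 granule cell markers was 13200 to 15840 (median 14070) in day 3 rats, against 15820 to 19040 (median 17890) in controls. The groups overlapped there by a narrow margin. The summed markers of microglia and of reactive astrocytes given above were higher in every day 3 rat than in any control. Bright genes weigh most in such sums, Lyz2 in the microglial one and Gfap and Vim in that of reactive astrocytes. For 9 markers of pyramidal and hilar neurons the summed signal was also without overlap, at 1195 to 1645 (median 1372) in day 3 rats, against 702 to 962 (median 865) in controls. The median log2 difference of these 9 was 0.09, and only 1 of them, Ociad2, passed. That sum therefore does not show a rise of the list as a whole. The part of these other cell types in the granule cell difference was not tested.

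Members of the TGF-beta family changed in both directions. Of 21 tested members 2 rose and 4 fell, with a median of 0.05. The falls were the secreted members Fst, Gdf10, Grem1 and Tgfb3, and the rises were the receptor Acvr1c and the signal transducer Smad3, of which Tgfb3 and Smad3 were named after their values were seen. Gdf10, a ligand of the family, had signals of 4.14 to 32.0 (median 21.0) in day 3 rats, against 80.3 to 163 (median 148) in controls. With Fst it was among the falls in which all day 3 rats lay far below the controls, and Gdf10 fell by 2.12 ± 0.28 (adjusted p = 2.55e-06). Grem1, gremlin, an antagonist of bone morphogenetic proteins, fell by 0.90 ± 0.24 (adjusted p = 0.0244). It lost the call without day 3 rat 2, day 3 rat 6 or control rat 3. Acvr1c, an activin receptor also called ALK7, had signals of 34.95 to 211 (median 147) in day 3 rats, against 12.1 to 57.2 (median 31.6) in controls and rose by 1.66 ± 0.41 (adjusted p = 0.0117). Its lowest day 3 rat lay within the control range. With day 3 rat 2 left out, 2 members rose, Acvr1c and Smad3, and 2 fell, Fst and Gdf10. Tgfb3 thus lost its call there, as Grem1 did.

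Growth factor genes fell where they passed. Of 22 tested neurotrophin and growth factor genes 4 fell and none rose, with a median of -0.12. Egfr, the receptor of epidermal growth factor, had signals of 24.3 to 74.6 (median 49.5) in day 3 rats, against 90.4 to 346 (median 163) in controls. No day 3 rat reached a control, and Egfr fell by 1.56 ± 0.23 (adjusted p = 1.53e-05). Ntf3, neurotrophin-3, which adult granule cells make, had signals of 182 to 1107 (median 642) in day 3 rats, against 1383 to 2204 (median 1688) in controls and fell by 1.65 ± 0.46 (adjusted p = 0.028). Fgfr1, a receptor of fibroblast growth factors, had signals of 70.7 to 173 (median 112) in day 3 rats, against 145 to 376 (median 218) in controls, with overlap, and fell by 0.89 ± 0.20 (adjusted p = 0.00601). With the mean of its kept probe sets Fgfr1 did not pass. Igfbp5, a binding protein of insulin-like growth factors, fell by 1.31 ± 0.36 (adjusted p = 0.024). Ntf3 lost the call in 5 of the 12 leave-one-out fits (highest adjusted p 0.116) and Igfbp5 in 7 of the 12 leave-one-out fits (highest adjusted p 0.0707). Without day 3 rat 2, Egfr and Fgfr1 were the members that fell. Bdnf, brain-derived neurotrophic factor, did not pass. Its signals were 464 to 803 (median 707) in day 3 rats, against 216 to 508 (median 380.4) in controls, and its difference was 0.86 ± 0.41 (adjusted p = 0.288). With the 12 rats fitted alone Bdnf was the 1 member of its list that rose, and 5 fell. Of 20 neuropeptide genes only Nmb, neuromedin B, passed. It fell by 0.80 ± 0.22 (adjusted p = 0.028) and lost the call in 5 of the 12 leave-one-out fits (highest adjusted p 0.113).

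Calcium handling genes fell where they passed. Of 25 tested, 3 fell and none rose, with a median of -0.25. Ryr1, a calcium release channel of the endoplasmic reticulum, had signals of 25.1 to 60.6 (median 36.1) in day 3 rats, against 172 to 238 (median 183) in controls. The groups were far apart, and Ryr1 fell by 1.95 ± 0.28 (adjusted p = 7.68e-06). Itpr1, the receptor of inositol trisphosphate, fell by 0.95 ± 0.29 (adjusted p = 0.0496) and lost the call in 10 of the 12 leave-one-out fits (highest adjusted p 0.185). Ppp3r1, the regulatory subunit of calcineurin, fell by 0.64 ± 0.19 (adjusted p = 0.0367) and lost the call in 6 of the 12 leave-one-out fits (highest adjusted p 0.161). Ryr1 was the only member that fell without day 3 rat 2. When the 12 rats were fitted alone, 1 member rose and 6 fell.

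Among ion channel genes single members passed, where 2.18% of all genes rose and 1.44% fell. Counts this small say little about the lists as a whole. Of 27 potassium channel genes 1 rose and 1 fell. Both encode parts of the Kv4 channels of the A-type current, and a joint change of that current was not tested. Kcnip2, an auxiliary subunit of Kv4 channels, had signals of 296 to 1116 (median 910.1) in day 3 rats, against 1525 to 2386 (median 1923) in controls. All day 3 rats lay below the controls, and Kcnip2 fell by 1.27 ± 0.34 (adjusted p = 0.0202). It lost the call without day 3 rat 2 or control rat 3, and also with the mean of its kept probe sets. Kcnd3, the Kv4.3 pore subunit, had signals of 437 to 706 (median 598) in day 3 rats, against 265 to 463 (median 299) in controls and rose by 0.80 ± 0.19 (adjusted p = 0.0113). Of 21 sodium, calcium and HCN channel genes 1 rose. This was Scn3a, a sodium channel pore subunit prominent before birth, with signals of 1107 to 1478 (median 1241) in day 3 rats, against 554 to 914 (median 734) in controls. Scn3a did not overlap between groups and rose by 0.78 ± 0.14 (adjusted p = 0.000314). Of 12 GABA receptor and chloride genes 1 rose, Gabrb2, the beta-2 subunit, by 0.65 ± 0.17 (adjusted p = 0.0217), a call lost in 5 of the 12 leave-one-out fits (highest adjusted p 0.0949). None of 20 glutamate receptor genes passed, with a median of -0.08. The smallest p was that of the kainate receptor subunit Grik2 at -0.45 ± 0.19 (adjusted p = 0.202). Of 21 synaptic vesicle genes 1 rose, Syn2, synapsin 2, which tethers vesicles, with signals of 1412 to 1972 (median 1728) in day 3 rats, against 697 to 1020 (median 837) in controls. Syn2 rose by 0.96 ± 0.26 (adjusted p = 0.0239) and lost the call in 4 of the 12 leave-one-out fits (highest adjusted p 0.063), and another of its probe sets was near 0.

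Axon guidance genes gave 2 rises and 2 falls among 24 tested, where 2.18% of all genes rose and 1.44% fell, with a median of 0.02. Sema3e, a secreted repellent, had signals of 80.5 to 213 (median 131) in day 3 rats, against 283 to 663 (median 373) in controls, without overlap, and fell by 1.51 ± 0.33 (adjusted p = 0.0033). Nrp2, a receptor of class 3 semaphorins, had signals of 145 to 452 (median 232) in day 3 rats, against 543 to 857 (median 632) in controls, also without overlap, and fell by 1.35 ± 0.30 (adjusted p = 0.00461). Ephb6, an ephrin receptor without kinase activity, rose by 1.32 ± 0.28 (adjusted p = 0.0025) with no overlap. Sema4a, a membrane-bound semaphorin, rose by 0.71 ± 0.21 (adjusted p = 0.039) and lost the call in 10 of the 12 leave-one-out fits (highest adjusted p 0.122).

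Cholesterol synthesis genes fell where they passed. Of 20 tested, 5 fell and none rose, 1 had a positive difference, and the median was -0.37, against 0.01 for all genes. Stard4, a carrier of sterols within the cell, had signals of 2.21 to 39.3 (median 35.9) in day 3 rats, against 55.7 to 69.2 (median 64.6) in controls and fell by 0.88 ± 0.22 (adjusted p = 0.0129). Day 3 rats did not reach the controls, but 1 day 3 rat was much lower than the others, and without it, day 3 rat 6, the call was lost (adjusted p = 0.0779). Fdft1, squalene synthase, the first committed enzyme of the sterol branch, had signals of 49.8 to 68.7 (median 52.3) in day 3 rats, against 62.8 to 181 (median 118) in controls and fell by 0.83 ± 0.21 (adjusted p = 0.0169). Cyp51, the sterol 14-alpha demethylase, had signals of 334 to 566 (median 476) in day 3 rats, against 649 to 1061 (median 747) in controls, without overlap, and fell by 0.78 ± 0.21 (adjusted p = 0.0196). Lss, lanosterol synthase, fell by 0.56 ± 0.16 (adjusted p = 0.036). Fdft1 lost the call without control rat 1, Cyp51 in 4 of the 12 leave-one-out fits (highest adjusted p 0.0662) and Lss in 5 of the 12 leave-one-out fits (highest adjusted p 0.124). The summed signal of the 20 genes was 3474 to 4052 (median 3918) in day 3 rats, against 4363 to 5459 (median 5085) in controls, and there no day 3 rat reached a control. Without day 3 rat 2, 6 members fell, and with the 12 rats fitted alone 8 fell. Of 12 genes of cholesterol export and storage none passed. Cyp46a1, the neuronal enzyme that turns cholesterol into the 24-hydroxy form that leaves the brain, came nearest, with signals of 386 to 717 (median 585) in day 3 rats, against 982 to 1252 (median 1119) in controls. Its groups did not overlap, and its difference of -0.96 ± 0.29 had an adjusted p of 0.0509.

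The other lists held few changes, where 2.18% of all genes rose and 1.44% fell. Of 8 markers of GABA neurons 1 fell, Pvalb, parvalbumin, with signals of 7.86 to 23.8 (median 17.4) in day 3 rats, against 34.3 to 87.3 (median 43.6) in controls. It fell by 1.02 ± 0.29 (adjusted p = 0.0367) and lost the call in 7 of the 12 leave-one-out fits (highest adjusted p 0.116). Of 9 pyramidal and hilar neuron markers 1 rose, Ociad2, by 1.68 ± 0.42 (adjusted p = 0.0131). In the heat shock and unfolded protein list, 1 of 19 rose, Xbp1, a transcription factor of the unfolded protein response, with signals of 1432 to 2359 (median 2193) in day 3 rats, against 693 to 1491 (median 1062) in controls and a rise of 0.95 ± 0.16 (adjusted p = 0.00016). Bhlhe41, a clock repressor, was the only one of 16 clock genes to pass. Its signals were 2307 to 3112 (median 2622) in day 3 rats, against 963 to 1396 (median 1177) in controls, widely apart, and it rose by 1.21 ± 0.17 (adjusted p = 6.39e-06). Of 11 glucocorticoid targets 1 rose, Pdk4, which holds back pyruvate dehydrogenase, by 1.203 ± 0.26 (adjusted p = 0.0038). None passed among 9 vessel, 13 oligodendrocyte, 14 antioxidant and 39 respiratory chain genes. The smallest p in these lists were those of Flt1, a receptor of vascular endothelial growth factor, at 0.42 ± 0.24 (adjusted p = 0.396), the myelin gene Mal at -0.62 ± 0.37 (0.441), sulfiredoxin Srxn1 at 0.78 ± 0.32 (0.201) and cytochrome oxidase subunit Cox4i1 at 0.58 ± 0.20 (0.107). The 1 tested blood gene, Hbb of haemoglobin, differed by -0.94 ± 0.40 (0.217).

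Immediate early genes, which neurons transcribe within minutes of strong activity, were high in 1 day 3 rat. Day 3 rat 2 was the highest of the 12 rats in 19 of 27 tested immediate early genes (70.4%), against 16.2% of all tested genes, and no other rat was highest in more than 3. On the log2 scale Fos, a transcription factor subunit, was 12.32 in day 3 rat 2, 5.56 to 6.44 in the other day 3 rats and 5.04 to 7.96 in controls. Arc, which acts at active synapses, was 9.88 in day 3 rat 2, 4.13 to 5.90 in the other day 3 rats and 5.77 to 6.76 in controls. Egr2, chosen after its values were seen, was 11.19 in day 3 rat 2, 4.55 to 5.397 in the other day 3 rats and 4.91 to 7.60 in controls. Npy, a peptide that granule cells make after seizures, followed the same rat, with 11.14 in day 3 rat 2, 7.87 to 8.49 in the other day 3 rats and 6.75 to 7.96 in controls. The summed signal of the 27 genes was 32780 in day 3 rat 2, 6939 to 9568 in the other 5 day 3 rats and 7259 to 9079 in controls. For Fos, Arc and Npy the difference did not pass with or without that rat. Fos differed by 0.55 ± 0.83 (adjusted p = 0.834), Arc by -0.17 ± 0.61 (adjusted p = 0.941) and Npy by 1.40 ± 0.66 (adjusted p = 0.286). Without rat 2 the difference was -0.49 (adjusted p = 0.839) for Fos, -0.95 (adjusted p = 0.416) for Arc and 0.90 (adjusted p = 0.598) for Npy, and the median of the list was -0.05 in place of 0.34. The 1 member that rose was Ptgs2, cyclooxygenase-2, with signals of 756 to 3132 (median 1245) in day 3 rats, against 322 to 794 (median 428) in controls. Ptgs2 rose by 1.46 ± 0.35 (adjusted p = 0.00964), and without rat 2 by 1.21 (adjusted p = 0.0487). Without rat 2, 283 genes passed in place of 389. Of the lists described above, 8 microglial, 5 phagocyte, 4 complement, 6 mitosis and 3 matrix genes then rose. The 3 matrix genes were Lox, Prss23 and Dcn, decorin, which had not passed with all rats and was named after its values were seen. Among the genes named above, the rises of Mmp9, Vcan and Sema4a and the falls of Cxcl12, Grem1, Igfbp5, Itpr1, Kcnip2, Nmb, Ntf3, Plk5, Ppp3r1, Pvalb and Tgfb3 no longer passed without rat 2.

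**Figure D3:**
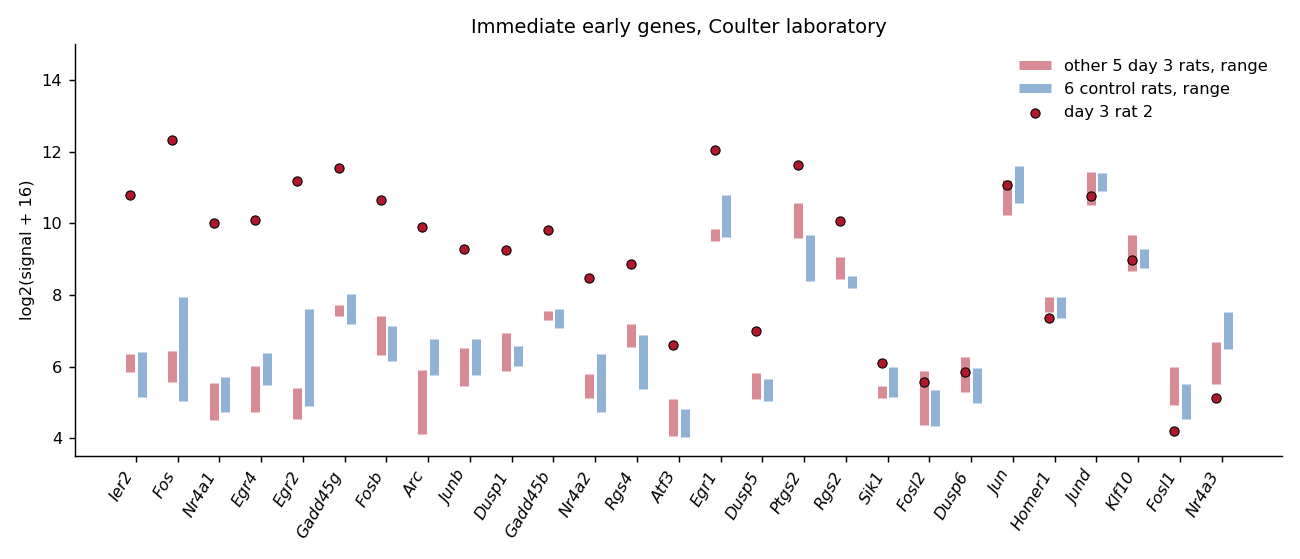
Log2(signal + 16) of the tested immediate early genes in day 3 rat 2 (points), with the range of the other 5 day 3 rats and the range of the 6 controls as lines. Rat 2 lies far above both ranges for Fos, Arc and Egr2, while the range of the other day 3 rats overlaps that of the controls in all 27 genes.

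Day 3 was set against day 1 and day 10 of the same laboratory to see which differences belong to that time. Between day 3 and day 1, 103 genes passed (0.96%), 57 higher and 46 lower at day 3. Between day 3 and day 10, 24 passed (0.224%), 22 higher (0.205%) and 2 lower (0.0186%) at day 3. Both counts turned on single rats. Against day 1, 496 or 674 genes passed without day 1 rat 1 or 2, but 9 without rat 4, 9 without rat 5 and 14 without rat 6. Leaving out day 3 rat 1, 3, 4 or 5 gave 31, 35, 46 or 58. Against day 10, 12, 5 or 6 passed without day 10 rat 1, 2 or 3, and 87, 168 or 178 without rat 4, 5 or 6. Leaving out day 3 rat 1, 2, 3, 4 or 6 gave 7, 11, 14, 10 or 10. Without day 1 rats 1 and 2 and day 10 rats 1 to 3, 1662 genes passed against day 1, among them all 103, and 0 passed against day 10 (limma, 648 at an unadjusted p under 0.05, smallest adjusted p 0.0687). On the first principal component, the day 1 rats left out lay nearer the controls than the rest of their group. The day 10 rats left out lay further from them. This choice, made from the same data, can enlarge the first count and shrink the second. Day 10 rats 4 to 6 were not left out together. The same group of day 3 rats enters both comparisons.

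Mitosis genes were highest at day 3. The summed signal of the 16 genes was 309.9 to 441.9 in controls, 393.8 to 588.9 at day 1, 616.0 to 869.3 at day 3 and 366.9 to 449.9 at day 10, and the day 3 range stood above the other 3. Cdk1 had median signals of 11.8 in controls, 10.3 at day 1, 49.8 at day 3 and 9.78 at day 10. It was higher at day 3 by 1.27 over day 1 (adjusted p = 0.00615) and by 1.31 over day 10 (adjusted p = 0.00609). Without the rats that stood apart these were 1.47 (0.000136) and 1.502 (0.0687), so the size held and the day 10 call was lost. Mki67 had median signals of 10.9 in controls, 10.96 at day 1, 42.6 at day 3 and 11.2 at day 10. Its difference was 1.07 over day 1 (0.0224) and 1.00 over day 10 (0.0605), or 1.18 (0.0017) and 1.17 (0.192) without those rats. Nusap1 was higher at day 3 than at day 10 by 1.19 (0.00574), and by 1.25 (0.0944) without them. Of the 16 mitosis genes 3 were higher at day 3 than at day 1, where 0.531% of all genes were, and 2 were higher than at day 10, where 0.205% were.

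Fst was lower at day 3 than at day 1. It had median signals of 158 in controls, 146 at day 1, 15.2 at day 3 and 35.6 at day 10. Its difference between day 3 and day 1 was -2.09 (adjusted p = 0.00343), and -2.60 (2.91e-06) without the rats that stood apart. Tafa1 had median signals of 610.0 in controls, 346 at day 1, 149.9 at day 3 and 445 at day 10. It was lower at day 3 than at day 10 by a log2 difference of -2.10 (0.0044), or -1.42 (0.192) without them. Gfap had median signals of 259 in controls, 586 at day 1, 1657 at day 3 and 615 at day 10 and was higher at day 3 than at day 1 by 1.43 (0.0256). Fst was the largest fall of day 3 against day 1, and others followed. Vegfa, a growth factor of vessels that hypoxia induces, had median signals of 42.4 in controls, 230.1 at day 1, 25.3 at day 3 and 107 at day 10, with a day 3 minus day 1 difference of -2.04 (0.00521). Day 1 rats 1 and 2 had Vegfa signals of 38.98 and 40.99, within the control range of 34.5 to 49.2, where day 1 rats 3 to 6 had 212 to 467. Day 10 rats 1 to 3 had 173 to 186 and day 10 rats 4 to 6 had 31.4 to 41.2. Without the rats that stood apart the Vegfa difference was -2.85 (2.33e-10). Rasd1, a Ras-like protein induced by glucocorticoids, differed by -1.96 (0.00343), Slpi, a protease inhibitor, by -1.92 (0.0276), and Dok5, an adaptor of receptor kinases, by -1.75 (0.00521). Against controls, Rasd1 fell at day 3 by 1.42 ± 0.34 (adjusted p = 0.00842), while Vegfa (adjusted p = 0.606), Slpi (0.921) and Dok5 (0.347) did not pass.

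The 6 largest rises of day 3 over day 1 included genes of astrocytes. Gja1, connexin 43 of astrocyte gap junctions, had median signals of 2112 in controls, 682 at day 1, 2985 at day 3 and 1365 at day 10 and a difference of 1.81 (adjusted p = 0.0104). Tril, a coreceptor of toll-like receptors, differed by 1.85 (0.0104), Slc15a2, a peptide transporter, by 1.65 (0.0104), Fam107a by 1.66 (0.0458) and Cmtm5 by 1.74 (0.0331). None of these 5 genes passed between day 3 rats and controls. Kctd4 differed by 2.00 (0.0181). Each of these differences was larger without day 1 rats 1 and 2, from 2.28 for Slc15a2 to 2.98 for Kctd4. Those rats were picked from the same data for lying nearer the day 3 rats than the rest of day 1. A larger difference without them is therefore partly fixed by that choice. Against day 10 the largest rises were Fcrl2 at 1.89 (0.0403), Fam107a at 1.87 (0.0432), Maob, a monoamine oxidase of astrocytes, at 1.66 (0.0339), Tril at 1.60 (0.0471), Slc15a2 at 1.57 (0.0309) and Lxn, latexin, at 1.37 (0.00574). Without day 10 rats 1 to 3, the difference was 0.55 (0.828) for Maob, 0.75 (0.649) for Tril, 0.85 (0.541) for Slc15a2 and 0.99 (0.733) for Fam107a. Lxn kept 1.33 (0.0687) and Fcrl2 had 2.26 (0.176). Fcrl2 also rose over controls, by 1.66 ± 0.43 (adjusted p = 0.0178), and lost that call without day 3 rat 1, 3 or 6.

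**Figure D4:**
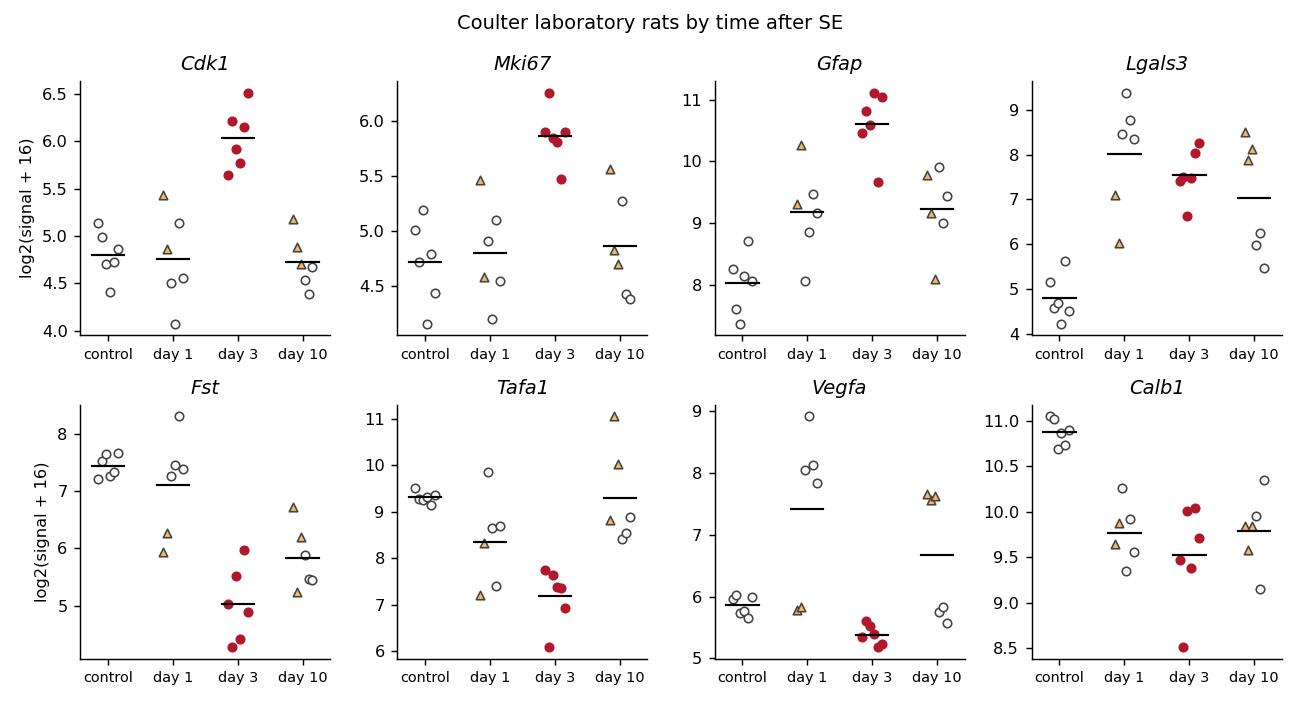
Log2(signal + 16) of Cdk1, Mki67, Gfap, Lgals3, Fst, Tafa1, Vegfa and Calb1 in each Coulter rat, from control through day 1 and day 3 to day 10. Bars are group means and triangles are day 1 rats 1 and 2 and day 10 rats 1 to 3. Cdk1 and Mki67 are highest at day 3, and the triangles lie apart from the other rats of their group in Vegfa.

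The Dingledine laboratory treated its own rats with pilocarpine and took granule cells at day 3, and the comparisons share no control. In Dingledine rats 506 genes passed, 382 higher (3.56%) and 124 lower (1.16%). Of the 234 genes that rose in Coulter rats, 226 had a positive difference in Dingledine rats (96.6%, where 53.8% of all genes did) and 128 rose there too. Of the 155 that fell, 153 had a negative difference (98.7%, where 46.2% of all genes did) and 40 fell there too. None of the 389 passed in Dingledine rats with the opposite sign. The 128 shared rises are 54.7% of the Coulter rises and 33.5% of the Dingledine rises, and the 40 shared falls are 25.8% and 32.3%. The genes that rose had a median difference of 0.96 in Coulter rats and 0.84 in Dingledine rats, and those that fell had medians of -0.84 and -0.49. Since the genes were chosen for passing in Coulter rats, a smaller median in the other laboratory is partly fixed by that choice. Over all 10731 genes Pearson's r was 0.635 and Spearman's rank correlation 0.493, as a description across genes that share arrays.

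The test of the difference between the responses of the laboratories called 0 genes (limma, 528 at an unadjusted p under 0.05), which does not show that the responses were equal. The 4 genes with the smallest p were Slc5a7, the choline transporter, Mt2A, a metallothionein, Map3k14, a kinase of NF-kappaB signalling, and Nat8l, which makes N-acetylaspartate. Mt2A differed from its controls by 0.59 ± 0.25 in Coulter rats and 1.96 in Dingledine rats. Slc5a7 differed by 1.06 ± 0.25 in Coulter rats and -0.28 in Dingledine rats. The main members had values of one sign in both. Vim signals were 196 to 1869 (median 970.3) in Dingledine day 3 rats, against 10.1 to 86.7 (median 40.3) in Dingledine controls, a rise of 3.86 (adjusted p = 6.75e-08). Lgals3 signals were 152 to 611 (median 274) in Dingledine day 3 rats, against 2.88 to 29.7 (median 8.79) in Dingledine controls, a rise of 3.43 (1e-06). Both genes were without overlap in that laboratory too. Cdk1 signals were 46.3 to 164 (median 67.7) in Dingledine day 3 rats, against 0.685 to 25.0 (median 3.42) in Dingledine controls, and Cdk1 rose by 2.00 (3.03e-07). Calb1 signals were 542 to 983 (median 755) in Dingledine day 3 rats, against 1362 to 2039 (median 1715) in Dingledine controls, with a difference of -1.21 (0.000686). Ryr1 differed by -2.34 (2.31e-07), Fst by -1.53 (0.00747) and Lox by 2.06 (0.0495), each past the threshold. Vav2 at -0.36 (0.56), Adra1d at -0.05 (0.97) and Scn3a at 0.19 (0.531) did not pass there. In Dingledine rats the mitosis list had a median of 0.77 with 9 of 16 higher, where 3.56% of all genes were, and the microglial list 1.38 with 9 of 15. The cholesterol synthesis list had a median of -0.40 there with 2 of 20 lower.

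**Figure D5:**
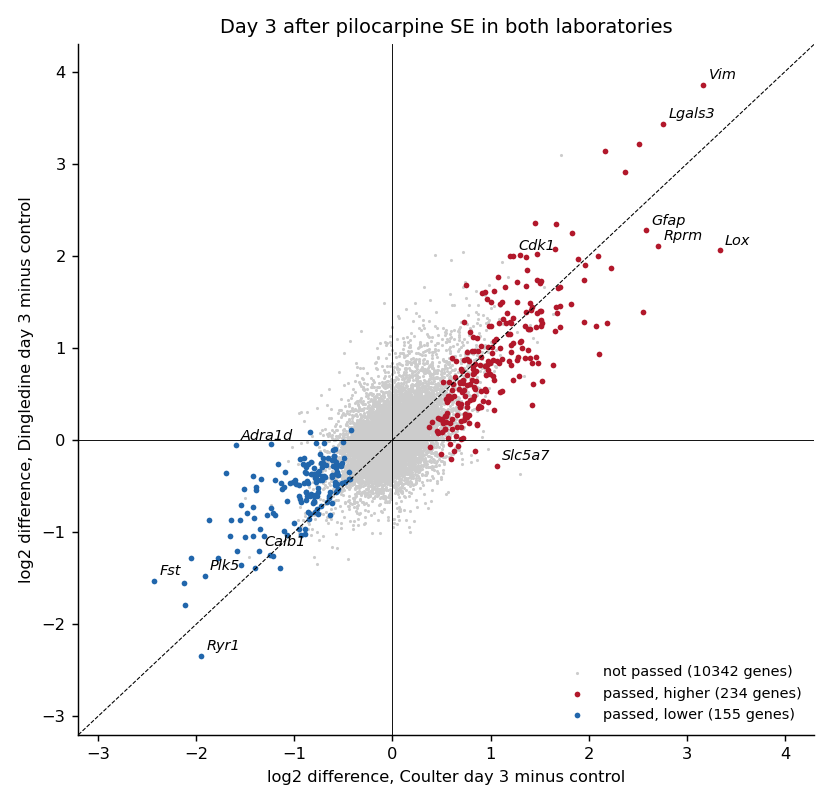
Log2 difference of day 3 minus control in Coulter rats (horizontal) and Dingledine rats (vertical) for the tested genes, with the genes that passed in Coulter rats in colour. Nearly all coloured points lie above 0 on both axes or below 0 on both.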

How the data were processed

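The deposited table holds 1 intensity per probe set and array on a linear scale, made from a 1-colour Affymetrix array with MAS5, per the submitters' processing notes; other upstream settings are not given in the sources used here. Intensities were used as log2(signal + 16) with no further normalization. Repeat arrays of 1 rat were averaged (172 arrays, 164 rats). Of 31042 probe sets other than array controls, 20826 carried 1 gene symbol (20758 matched to current RefSeq symbols on GRCr8), 436 several and 9780 none. A probe set was kept where it exceeded its own array's median in at least 6 of the 164 rats (14230 kept). Each gene took its kept probe set with the highest mean, which left 10731 genes, 2662 of them with several kept probe sets. Differences were fitted with limma 3.58.1 in R 4.3.3 over the 8 pilocarpine groups (48 rats), with Benjamini-Hochberg adjustment over all tested genes and a threshold of 0.05. Scripts were tested on simulated data. Summed list signals are sums of linear intensities. Array quality was compared with exact two-sided permutation tests. The number of arrays limits the precision.

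Genes named in the text were the 12 largest rises and 12 largest falls among genes that passed, up to 4 passing members of each list with the largest change (or the member with the smallest p), Fos, Arc, Bdnf, Npy, Gfap, Prox1, Calb1, Plk5 and Lox, the 6 largest rises and falls against day 1 and against day 10, and the 4 smallest p for the difference between laboratories. The members and lists were chosen with earlier results of these data known. Rats are separate animals. The labels do not say that numbers pair rats between groups, and the fit did not pair them. The correlation of same-numbered rats' deviations was 0.00903 to 0.323, and 4 of the 6 were under 0.1. These values alone cannot decide whether rats were paired. Alternatives were pseudocounts of 1 and 64, other filters, quantile normalization, the mean over probe sets, other sets of groups in the fit, array weights, a trended prior, a replicate block, first arrays only, a test against a 1.5-fold change, and leaving out rats.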

Additional observations from a re-analysis of the deposited data

Results flagged for a closer look

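Among 220 groups of 6 rats examined for the genes named, 13 held a rat whose gap to its nearest neighbour exceeded Dixon's 95% critical value, and chance gives about 1 in 20. In 8 of these the rat was day 3 rat 2. On the log2(signal + 16) scale it had 12.32 for Fos, where the other 5 day 3 rats had 5.56 to 6.44, 9.89 for Arc (others 4.13 to 5.90) and 11.14 for Npy (others 7.87 to 8.49). It was the lowest for Gpc3 at 4.39 (others 5.46 to 6.05), for Cxcl12 at 6.56 (8.73 to 9.37), for Kcnip2 at 8.28 (9.64 to 10.14), for Ppp3r1 at 9.64 (10.42 to 10.71) and for Xbp1 at 10.50 (11.07 to 11.21). Day 3 rat 6 was lowest for Irf8 at 5.16 (others 5.58 to 5.69) and Stard4 at 4.19 (5.49 to 5.79). Among controls, rat 3 was highest for Grem1 at 6.23 (others 5.24 to 5.58), rat 1 highest for Tril at 8.41 (7.39 to 7.77) and rat 5 lowest for Slc15a2 at 6.49 (6.94 to 7.19).

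The day 3 response differed from the day 1 response, by limma's test of day 3 against day 1, in 19 genes named here. Day 3 was higher in Gfap by 1.43, Cdk1 by 1.27, Mki67 by 1.07, Kctd4 by 2.00, Tril by 1.85, Gja1 by 1.81, Cmtm5 by 1.74, Fam107a by 1.66, Slc15a2 by 1.65, Maob by 1.42 and Lxn by 1.32 on the log2 scale. The day 3 minus day 1 difference was -2.09 for Fst, -0.82 for Fgfr1, -2.04 for Vegfa, -1.96 for Rasd1, -1.92 for Slpi, -1.75 for Dok5, -1.58 for Cd300c2 and -1.07 for Dclk1. Against day 10, day 3 was higher in Cdk1 by 1.31, Nusap1 by 1.19, Tril by 1.60, Fam107a by 1.87, Slc15a2 by 1.57, Fcrl2 by 1.89, Maob by 1.66 and Lxn by 1.37, and the difference was -2.10 for Tafa1 and -1.13 for Dclk1. None of the day 10 differences passed without day 10 rats 1 to 3 and day 1 rats 1 and 2. All of the day 1 differences did, which is partly fixed by the choice of the rats left out.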

How the results depend on the processing

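Of the 80 named genes that passed between day 3 rats and controls, 55 kept the call in each of the 12 leave-one-out fits and none turned its direction under any alternative tried. With the mean of a gene's kept probe sets, the calls of Anxa3, Cxcl12, Cxcr4, Fgfr1, Itpr1, Kcnip2, Mmp9, Ppp3r1, Syn2 and Vcan were lost. Over 110 named genes and all alternatives, 2964 values were computed. Of these 2677 kept direction and side of the threshold, 242 no longer passed, 39 newly passed and 6 turned their direction. Those were Arc at 0.12 with a pseudocount of 64, 0.0038 without day 3 rat 3 and 0.20 without day 3 rat 6, Fos at -0.49 without day 3 rat 2, Map3k14 at 0.0119 without day 3 rat 5 and Slpi at -0.0316 without day 3 rat 6. Without single rats their differences ran from -0.946 to 0.204 for Arc, -0.488 to 0.864 for Fos, -0.269 to 0.0119 for Map3k14 and -0.0316 to 0.3645 for Slpi. The 389 genes between day 3 and control became 1266 in a fit over all 28 groups, 1059 with array weights, 886 with the 12 rats alone, 20 against a 1.5-fold change and 260 to 417 without single rats. The 103 against day 1 became 1520 over 28 groups, 431 with array weights, 13 over the 4 Coulter groups, and 9 to 674 without single rats. The 24 against day 10 became 842 over 28 groups, 7 with a pseudocount of 1, 6 with quantile normalization, 11 over the 4 Coulter groups and 5 to 178 without single rats. Without the rats that stood apart, an alternative chosen after seeing the data, they were 530, 1662 and 0. The laboratory difference, 0 genes, became 39 over 28 groups and 19 with first arrays only, and stayed 0 without any single rat. The replicate block gave 419, 104, 39 and 0 genes for the 4 comparisons, though the numbers are not said to pair the rats. Of the genes called, 60.2% were higher at day 3 than in controls, against 70.0% in the 1.5-fold test. Against day 1, 55.3% were higher, or 69.2% over the 4 Coulter groups. Against day 10, 91.7% were higher, or 70.9% over 28 groups. The day 3 minus control difference in array quality, 0.0644 for the median signal, was -0.351 to 1.05 without single rats, with negative values of -0.101, -0.124 and -0.225 without day 3 rats 2, 5 and 6 and of -0.212, -0.107, -0.18 and -0.351 without control rats 3 to 6. It was -0.227 to 0.0909 for Gapdh and -0.247 to 0.0307 for actin, positive in both without control rat 1. The cause of these changes was not tested.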
